A study of Homo sapiens with 2 samples.

Results

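Metallothioneins are small cysteine-rich proteins that bind zinc, copper and cadmium, and cells that hold more free zinc make more of them. The zinc-sensing transcription factor MTF1 drives their genes through short metal response elements in their promoters, and it drives the exporter gene SLC30A1 in the same way. Proteins of the SLC30 family move zinc out of the cytosol, to the outside or into organelles, and proteins of the SLC39 family move it in. Breast epithelium secretes zinc into milk, and several of these transporters have been studied in breast cancer cells.

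A set of 10 genes of this system were followed, MT2A, MT1X, MT1F, MT1E and MT1G of the metallothioneins, MTF1, the exporters SLC30A1 and SLC30A5 and the importers SLC39A10 and SLC39A14. They are 10 of the 25240 genes in the deposited tables. They were picked by name, with earlier results of the same comparison known, so their ratios between the libraries are descriptions and carry no test. RNA came from T47D, an established luminal breast cancer cell line, in 2 libraries. One was made from cells that carried a short hairpin to lower RON, a receptor tyrosine kinase whose gene is MST1R (shRON). The other was made from cells given a non-targeting hairpin (shNT). Both sets of cells were selected in 5 ug/mL puromycin, kept in 1 ug/mL and grown in high-glucose DMEM with 10% serum. The title of the control table speaks of wild-type cells, and its label of a hairpin; the label was followed. Each group is a single library without replicate error, and every difference below is between these 2 libraries.

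The metallothionein genes lie side by side in a cluster of 119 kb on chromosome 16 (hg19, 56598961 to 56718108), which holds all 14 family genes of the tables. Their coding sequences are close copies of one another. Those of MT2A and MT1X are printed because both genes were higher in the shRON library, with the cysteine codons in capitals; they come from the GENCODE v44 transcripts on GRCh37.
MT2A coding sequence: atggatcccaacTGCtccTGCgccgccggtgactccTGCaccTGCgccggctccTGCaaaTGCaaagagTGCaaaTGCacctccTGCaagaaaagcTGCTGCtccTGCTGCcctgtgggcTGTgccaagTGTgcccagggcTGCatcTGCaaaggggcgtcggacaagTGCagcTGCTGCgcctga
MT1X coding sequence: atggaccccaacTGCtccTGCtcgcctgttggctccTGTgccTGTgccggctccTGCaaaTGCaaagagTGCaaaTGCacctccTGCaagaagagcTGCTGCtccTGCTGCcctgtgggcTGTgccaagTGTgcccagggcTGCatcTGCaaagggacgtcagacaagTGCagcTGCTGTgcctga
Each codes for 61 residues, of which 20 are cysteines. The pair matched at 172 of 186 bases (92.5%), and the 6 pairs among MT2A, MT1X, MT1F and MT1G matched at 88.7% to 95.2%. This bears on how reads were assigned. Of the 355 stretches of 50 bases in the MT1X transcript, 181 (51.0%) also occur in annotated transcripts of other genes, among them MT2A, MT1G and the pseudogene MT1XP1. The share was 11.1% for MT2A, 6.12% for MT1F and 20.2% for MT1G. No source used here says how reads of such stretches were divided, so single metallothionein values are uncertain, above all that of MT1X.

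Promoters are printed for the 3 genes that were highest against shNT among the members, MT1X, MT2A and SLC30A1, and for MT1H, a metallothionein gene listed at 0 in both libraries. Capitals mark the core of the metal response element, searched as TGCACNC and TGCGCNC on both strands, with no overlapping matches in these windows. The sequences are RefSeq's, on GRCh38.p14, from 250 bases before to 50 after the annotated start. Promoters of 6 of the 10 members were searched. Those of MT1E, MT1F and MT1G were not among the entries used, which does not show that RefSeq lacks them. SLC39A14 was left out of the member promoters by a fixed setting, whether or not RefSeq has an entry for it. The positions are chr16:56682220-56682519 for MT1X, chr16:56608334-56608633 for MT2A and chr16:56669564-56669863 for MT1H, all on the plus strand, and chr1:211579112-211579411 on the minus strand for SLC30A1.
MT1X promoter: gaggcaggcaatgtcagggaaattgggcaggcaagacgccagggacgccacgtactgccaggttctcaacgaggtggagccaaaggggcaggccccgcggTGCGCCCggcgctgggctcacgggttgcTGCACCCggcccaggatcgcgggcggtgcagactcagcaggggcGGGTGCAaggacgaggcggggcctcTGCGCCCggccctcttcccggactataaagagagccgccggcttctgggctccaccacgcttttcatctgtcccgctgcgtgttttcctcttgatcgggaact
MT2A promoter: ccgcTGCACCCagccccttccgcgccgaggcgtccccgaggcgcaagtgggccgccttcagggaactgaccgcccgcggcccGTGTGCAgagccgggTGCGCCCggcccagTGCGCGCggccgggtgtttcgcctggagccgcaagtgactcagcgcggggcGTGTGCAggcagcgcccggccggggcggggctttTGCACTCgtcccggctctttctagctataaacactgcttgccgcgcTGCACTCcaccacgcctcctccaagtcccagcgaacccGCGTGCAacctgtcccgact
SLC30A1 promoter: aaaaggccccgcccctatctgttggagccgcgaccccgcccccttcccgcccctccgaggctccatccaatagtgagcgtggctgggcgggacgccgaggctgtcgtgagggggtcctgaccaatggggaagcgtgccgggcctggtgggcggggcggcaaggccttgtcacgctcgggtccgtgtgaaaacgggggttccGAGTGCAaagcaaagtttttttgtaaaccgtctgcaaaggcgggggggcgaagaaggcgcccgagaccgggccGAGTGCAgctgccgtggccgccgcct
MT1H promoter: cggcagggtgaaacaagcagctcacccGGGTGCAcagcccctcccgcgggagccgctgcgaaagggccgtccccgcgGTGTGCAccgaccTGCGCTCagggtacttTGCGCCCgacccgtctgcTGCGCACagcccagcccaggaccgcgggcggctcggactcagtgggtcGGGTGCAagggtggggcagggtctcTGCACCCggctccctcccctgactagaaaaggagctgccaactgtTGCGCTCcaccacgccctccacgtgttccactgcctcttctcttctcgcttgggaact
MT1X held 4 matches, MT2A and MT1H 8 each, and SLC30A1 2. Among the 35116 promoter entries searched, 29.6% held at least 1 match, 8.60% at least 2, 0.601% at least 4 and 0.0199% at least 8. MT1B and MT4, also listed at 0 in both libraries, held 3 matches each. MTF1 and SLC30A5 held 0, and of the 2 entries of SLC39A10 one held 0 and the other 1. The number of matches did not order the genes by level, since MT1H and MT2A had the same number. A match is a run of letters, not a bound site.

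Depth and identity of the libraries set the frame for these values. The tables rest on about 11500000 estimated fragments in shRON and 11900000 in shNT, and 12484 genes reached 1 FPKM (fragments per transcript length and library depth) in at least 1 library. MST1R, the hairpin's target, was at 9.10 FPKM in shRON and 12.1 in shNT, a ratio of 0.749 (counting interval 0.675 to 0.832). Its log2 ratio of FPKM + 1 was -0.38, short of 1.5-fold, and 17.7% of all measured genes had a lower one. All 9 luminal markers were measured, with a median log2 ratio of -0.40. Of these, 3 were at least 1.5-fold lower in shRON, PGR (log2 ratio -1.11), CDH1 (-0.70) and ESR1 (-0.61), and 0 higher. Over all measured genes, 8.84% were lower and 9.95% higher by that size. CDH1 lies on the long arm of chromosome 16, where 28.8% of measured genes outside the metallothioneins were that much lower. The 3 basal and 4 endothelial markers stayed under 1 FPKM in both libraries, as did 4 of 6 fibroblast and 6 of 7 immune markers; PTPRC, LYZ and CD3E were listed at 0 in both. The exceptions were COL1A1, at 4.27 FPKM in shRON and 3.95 in shNT, COL3A1 at 1.53 and 0.0103, and the lysosomal gene CD68 at 5.84 and 1.37. The summed levels of the other-cell markers were 5.86 FPKM in shRON and 4.14 in shNT for fibroblasts, and 5.84 and 1.38 for immune cells; the part of any of these marker lists in the results was not tested.

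MT2A, the most abundant metallothionein mRNA in these cells, stood at 106 FPKM in shRON and 59.5 FPKM in shNT. The log2 ratio of FPKM + 1, shRON over shNT, was 0.83, and the plain ratio of FPKM was 1.79. An approximate exact binomial interval on the estimated 625 fragments in shRON and 375 in shNT ran from 1.57 to 2.04; such intervals cover counting error only, not differences between cultures. In bulk RNA, more cells with the transcript and more transcript per cell cannot be told apart. The gene spans 56642478 to 56643409 on chromosome 16 in hg19.

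MT1X stood at 23.6 FPKM in shRON and 2.08 FPKM in shNT, the largest ratio of the 10 genes. The log2 ratio was 3.0, and 0.112% of all measured genes had a higher one. The FPKM ratio came to 11.3, and its approximate interval of 6.44 to 21.7 rests on an estimated 130 fragments in shRON and 13.3 in shNT. The shNT value is thus a low one, and the width of the interval comes from it. MT1X closes the cluster on the side of the telomere, at 56716382 to 56718108.

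MT1F, the remaining gene of the family with a measured level, was close in both libraries, at 2.26 FPKM in shRON and 1.82 FPKM in shNT. Its log2 ratio was 0.21, and the interval of the ratio of FPKM, 0.541 to 2.87, spans both 1 and 2, so a 2-fold higher level in shRON lay within counting error at an estimated 14.3 fragments in shRON and 12.7 in shNT. MT1E and MT1G, both coding for metallothioneins of the same type, were listed at 0 in both libraries, so no ratio is given. So were MT1A, MT1B, MT1H, MT1L, MT1M, MT1IP, the brain-type MT3 and MT4. The pseudogene MT1DP was listed at 0 in shRON and at 0.373 FPKM in shNT. MT1JP and MT1P1 were looked for by name and had no entry in either library.

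Summed over the family, metallothionein mRNA came to 132 FPKM in shRON and 63.7 FPKM in shNT, a ratio of 2.07. MT2A made up 80.5% of the sum in shRON and 93.3% in shNT, and MT1X 17.8% and 3.26%. MT2A therefore exceeded MT1X 4.51 times in shRON and 28.6 times in shNT.

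**Figure D1:**
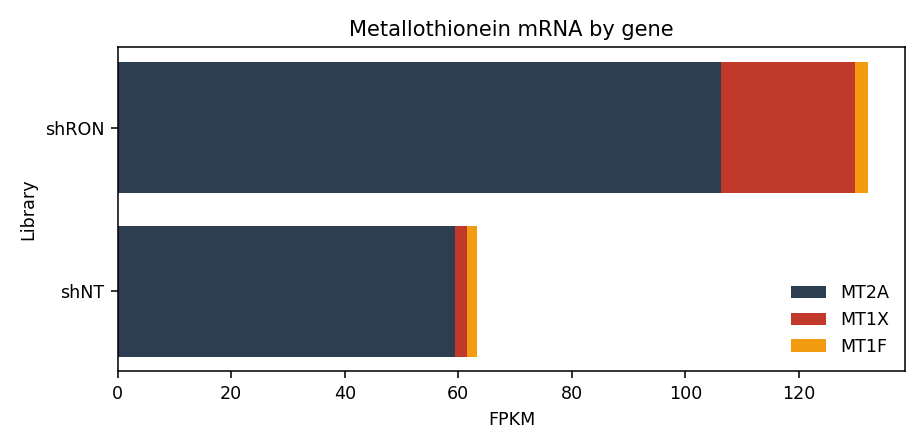
Metallothionein mRNA in the shRON library (upper bar) and the shNT library (lower bar), in FPKM, divided by gene; MT1DP, at 0.373 FPKM in shNT, is not drawn. The family sums are 132 FPKM in shRON and 63.7 in shNT, and the MT1X part is 23.6 in shRON against 2.08 in shNT.

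MTF1, the transcription factor that senses zinc and drives metallothionein genes, was nearly level, at 4.02 FPKM in shRON and 3.41 FPKM in shNT. Its log2 ratio was 0.19, and 34.7% of all measured genes had a higher one. The interval of the ratio of FPKM ran from 1.03 to 1.35. The gene has 1 transcript in the tables and lies on chromosome 1 (38275239 to 38325292).

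The 2 exporters went opposite ways. SLC30A1, which encodes the zinc exporter of the plasma membrane, stood at 9.90 FPKM in shRON and 6.47 FPKM in shNT. Its log2 ratio of 0.54 lay just short of 1.5-fold (0.58) on the FPKM + 1 scale, whereas the plain ratio of FPKM was 1.53 (1.27 to 1.84). It lies at 211748381 to 211752099 on chromosome 1, and the median log2 ratio of the 20 nearest measured genes, 10 on each side, was -0.46. Relative to that median SLC30A1 was at 1.00.

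SLC30A5, whose product loads zinc into the early secretory pathway, stood at 23.3 FPKM in shRON and 33.5 FPKM in shNT. The log2 ratio was -0.50 and the ratio of FPKM 0.697 (0.639 to 0.760), again short of 1.5-fold. Both of its transcripts were lower in shRON: the one of 2935 bases at 18.8 FPKM against 26.5 in shNT, and the one of 1317 bases at 4.57 against 7.02. The 20 measured genes around it on chromosome 5, 10 on each side, had a median of -0.21.

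The 2 importers also differed in sign. SLC39A10, a plasma membrane importer, stood at 5.54 FPKM in shRON and 3.90 FPKM in shNT, with a log2 ratio of 0.41 and a ratio of FPKM of 1.42 (1.22 to 1.64). SLC39A14, which carries iron and manganese as well as zinc, stood at 6.13 FPKM in shRON and 7.32 FPKM in shNT, with a log2 ratio of -0.22 and a ratio of FPKM of 0.837 (0.734 to 0.954). Nearly all SLC39A14 signal came from 2 transcripts of 4692 bases whose differences had opposite signs. The more abundant one was at 5.45 FPKM in shRON and 6.96 in shNT, and the other at 0.677 and 0.366. Neither importer reached 1.5-fold.

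**Figure D2:**
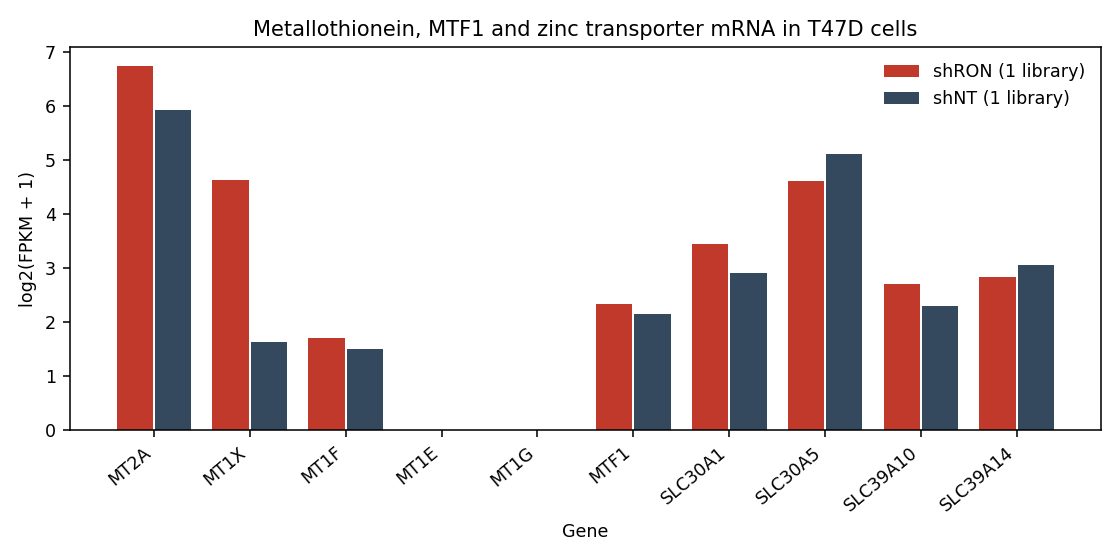
Level of the 10 genes as log2(FPKM + 1), with the shRON library as the left bar and the shNT library as the right bar of each pair. MT1X shows the widest gap (23.6 against 2.08 FPKM), MT2A is the tallest (106 against 59.5), and MT1E and MT1G have no bar because both were listed at 0.

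All 8 members with a level passed 1 FPKM in both libraries. Of these, 2 were at least 1.5-fold higher in shRON, MT1X and MT2A, and 0 at least 1.5-fold lower. Over all 12484 measured genes, 9.95% were higher and 8.84% lower by that size, 3.32% were at least 2-fold higher and 2.17% at least 2-fold lower. Since the same ratios were known when the 10 genes were chosen, nothing is read from their count against that background. By FPKM in shRON the order was MT2A, MT1X, SLC30A5, SLC30A1, SLC39A14, SLC39A10, MTF1 and MT1F, with MT1X and SLC30A5 (23.6 and 23.3) nearly level. In shNT it was MT2A, SLC30A5, SLC39A14, SLC30A1, SLC39A10, MTF1, MT1X and MT1F.

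Most genes around the metallothionein cluster were lower in shRON. Of the 20 other measured genes within 1 Mb of the cluster, 18 had log2 ratios below 0, 16 of them at least 1.5-fold lower, with a median of -0.88. On the centromere side BBS2, the nearest measured gene, stood at 7.23 FPKM in shRON and 9.38 in shNT (-0.33). On the telomere side NUP93, the nearest, stood at 7.45 FPKM in shRON and 10.6 in shNT (-0.46), and HERPUD1 at 15.7 and 26.6 (-0.73). The 2 genes above 0 were NLRC5, a regulator of MHC class I genes, at 5.72 FPKM in shRON and 3.18 in shNT (0.68), and the chemokine gene CX3CL1, at 2.14 and 0.106. CX3CL1 reached 1 FPKM in shRON only and so had to be higher there. Likewise CPNE2 (0.590 FPKM in shRON and 1.89 in shNT), PLLP (0.580 and 5.84) and CCDC102A (0.966 and 3.50) reached it in shNT only and so had to be lower. Among the 16 neighbours with 1 FPKM in both libraries, a setting chosen after seeing the data, 15 had log2 ratios below 0 and 13 were at least 1.5-fold lower, with a median of -0.88.

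Over the whole long arm, 264 other measured genes had a median log2 ratio of -0.38, and 76 (28.8%) were at least 1.5-fold lower and 7 (2.65%) at least 1.5-fold higher. On the short arm the median of 350 genes was -0.28, and off chromosome 16 that of 11867 genes was 0.05. Among the 267 measured genes of the long arm, MT1X had the highest log2 ratio, MT2A ranked 7 and MT1F ranked 21. The 20 measured genes around MT2A and MT1X, 10 on each side with metallothioneins left out, had a median of -0.86. Those on the centromere side reached past 1 Mb. Relative to it MT2A was at 1.68, MT1X at 3.85 and MT1F at 1.06. The counting intervals of MT2A and MT1X lay above that median, whereas the interval of MT1F, whose ratio of FPKM could be as low as 0.541, reached it.

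**Figure D3:**
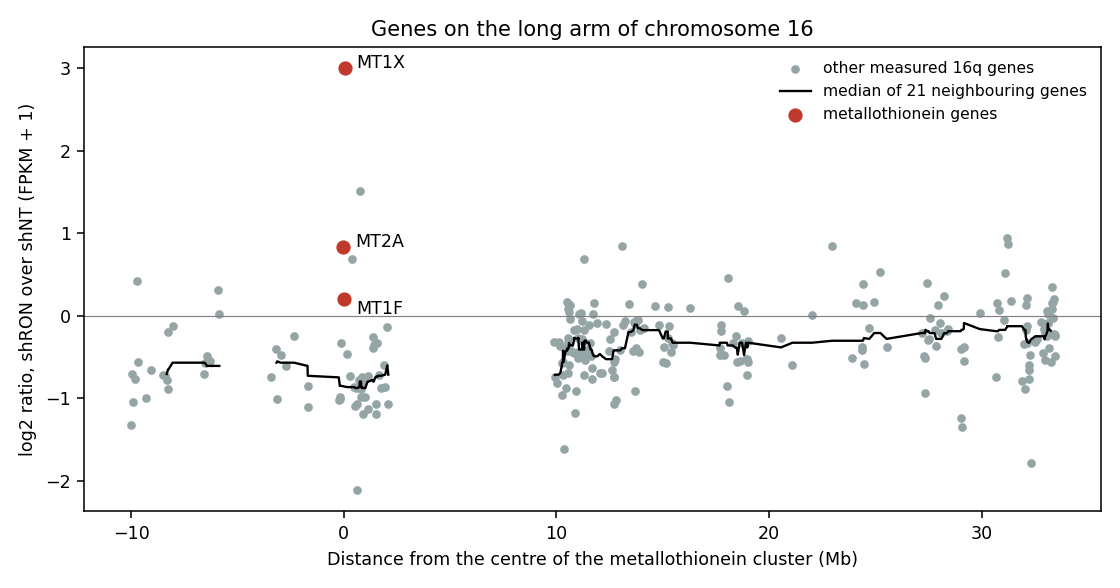
Log2 ratio of FPKM + 1, shRON over shNT, of each measured gene on the long arm of chromosome 16 (grey points) against its distance in Mb from the centre of the metallothionein cluster; the line is the median of 21 neighbouring genes, and red points are metallothioneins. MT1X (3.0) and MT2A (0.83) stand above a line that lies below 0 around them.

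Both transporter families were counted whole, members included. Over all measured genes, 9.95% were at least 1.5-fold higher in shRON and 8.84% at least 1.5-fold lower. Of the 10 SLC30 genes, 6 were measured, 0 passed 1.5-fold in either direction and their median log2 ratio was 0.28, beside 0.04 over all measured genes. SLC30A7 and SLC30A6, which serve the secretory pathway, had log2 ratios of 0.45 and 0.36, and SLC30A9 was at 29.7 FPKM in shRON and 29.5 in shNT. Of the 14 SLC39 genes, 11 were measured, 5 above 0 and 6 below, with a median of -0.09, which turned to 0.0041 when only the most abundant transcript of each gene was used. The lowest were SLC39A11 (-0.41) and SLC39A3 (-0.31). SLC39A8, an importer of zinc, iron and manganese close in sequence to SLC39A14, was the 1 gene past 1.5-fold, at 7.49 FPKM in shRON and 4.08 in shNT (0.74). That count, 1 of 11, is near the share over all genes. SLC39A6, an estrogen-regulated importer that pairs with SLC39A10, was at 34.6 FPKM in shRON and 30.3 in shNT. The most abundant importers were SLC39A7, of the endoplasmic reticulum, at 87.1 and 80.7, and SLC39A1, of the plasma membrane, at 86.4 and 104. Summed over the family, SLC30 mRNA came to 78.7 FPKM in shRON and 81.0 in shNT, and SLC39 mRNA to 324.7 and 345.

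Regulators, stress genes, glucocorticoid-response genes, copper genes and iron genes were described list by list. All these counts are to be read beside the 9.95% of all measured genes that were at least 1.5-fold higher and the 8.84% lower. Of 8 measured regulators beside and including MTF1, 1 was at least 1.5-fold higher, USF1 (29.9 FPKM in shRON and 19.0 in shNT), and 0 lower; the glucocorticoid receptor gene NR3C1 had a log2 ratio of 0.11. A count of 1 among 8 is near the background. Of 10 oxidative and metal stress genes, 5 were higher and 0 lower, with a median of 0.46. The heme oxygenase gene HMOX1 was at 14.0 FPKM in shRON and 4.02 in shNT (1.58), the cystine transporter gene SLC7A11 at 3.28 and 1.02 (1.08), and the quinone reductase gene NQO1 at 354 and 196 (0.85). NQO1 also lies on the long arm of chromosome 16 and ranked 5 there. The other 2 higher genes were the near-identical copies HSPA1A (0.66) and HSPA1B (0.63), whereas GCLM, TXNRD1 and GCLC had log2 ratios between -0.01 and 0.20.

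Of 8 measured glucocorticoid-response genes, 3 passed 1.5-fold upward and 0 downward, with a median of 0.40. TSC22D3 was at 21.1 FPKM in shRON and 8.67 in shNT (1.19) and CEBPD at 32.1 and 17.8 (0.82), while FKBP5 had a log2 ratio of -0.05. SGK1 reached 1 FPKM in shRON only, so it had to be higher, and KLF9 in shNT only (0.666 FPKM in shRON and 1.46 in shNT, -0.56), so it had to be lower. Of 8 copper genes, 1 was higher, CCS, the copper chaperone of superoxide dismutase (log2 ratio 0.68), and 1 lower, COX17, which delivers copper to cytochrome oxidase (45.8 FPKM in shRON and 110 in shNT), with a median of -0.33; both counts are near the shares of 9.95% and 8.84% over all genes. Of 9 measured iron genes, 3 were higher and 1 lower, with a median of -0.18. The ferritin genes FTH1 (1555 FPKM in shRON and 1008 in shNT) and FTL (475 and 286) were higher, as was STEAP3 (13.5 and 7.19), and the transferrin receptor gene TFRC was lower (310 and 489).

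**Figure D4:**
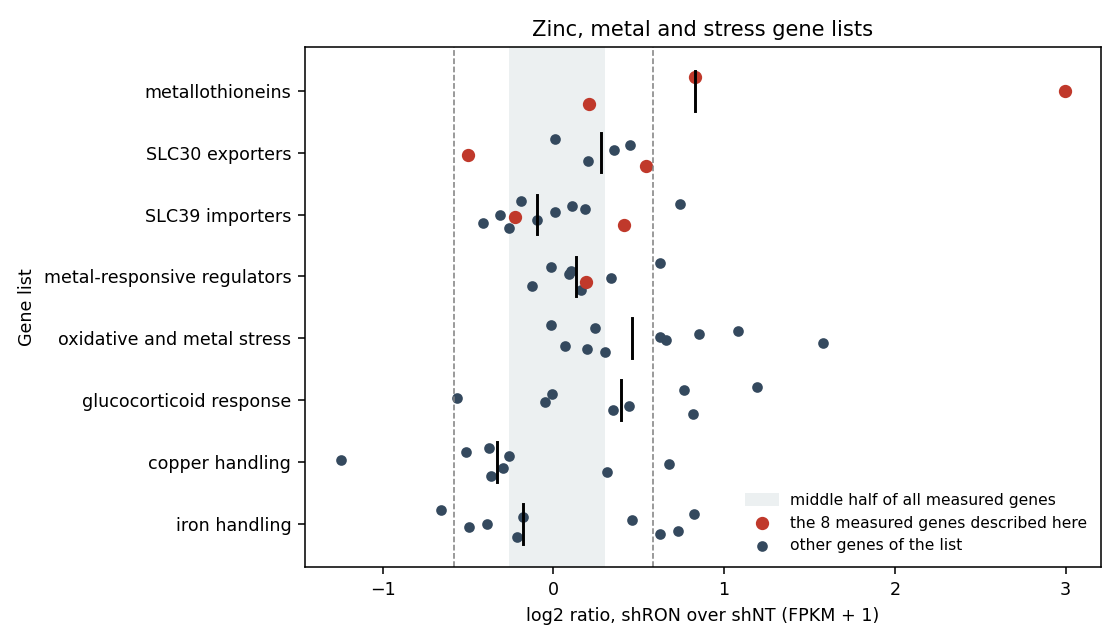
Log2 ratio of FPKM + 1, shRON over shNT, of each measured gene in 8 lists of zinc, metal and stress genes; red points are the 8 measured genes described here, black bars are list medians, dashed lines mark 1.5-fold and the grey band spans the quartiles of all measured genes. Metallothioneins (median 0.83) and stress genes (0.46) lie to the right, copper genes (-0.33) to the left.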

How the data were processed

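Each library has 1 table of 37839 RefSeq transcripts laid out as Cufflinks writes them, per the file headers, on hg19, per the submitters' processing notes, which also name DESeq without a role. The deposited FPKM values and the deposited coverage signal (mean read depth of a transcript) were made by the authors; aligner, versions and any scaling between libraries are not given in the sources here. FPKM was summed over transcripts per gene. Genes had to reach 1 FPKM in either library, and small RNA genes were left out. The log2 ratio is that of FPKM + 1, and a gene counted as higher or lower at 1.5-fold. Fragments were estimated as coverage times length over the median bases of a read pair (242 in shRON, 244 in shNT); whole counts were not recovered and the intervals are 95% Clopper-Pearson. Every count is a rule of size, with no test. Members, lists and settings were chosen with earlier results of these data known; named genes are the members, list genes at 1.5-fold and those needed to read them. Values were computed with Python 3.11.15 and pandas 2.3.3. The genome reference used for transcripts was GRCh37.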

Additional observations from a re-analysis of the deposited data

How the results depend on the processing

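No paired analysis was possible because each group has 1 library, and no replicate could be left out. MT1X and MT2A were at least 1.5-fold higher in shRON under each setting tried. SLC30A1 joined them, making 3 members, with a pseudocount of 0.1 and with FPKM rescaled to a common sum, and 0 members were lower by that size under any setting tried. MT1X ranged from 2.01 (pseudocount 5) to 3.44 on the log2 scale, MT2A from 0.78 to 1.2, and SLC30A1 from 0.38 to 0.64; coverage in place of FPKM, chosen after seeing the data, left each member within its counting interval. The sign of each of the 8 measured members was kept.

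With a pseudocount of 5, the 1242 higher and 1104 lower genes of the whole table became 518 and 465, the SLC30 median was 0.16 and that of other 16q genes -0.24. Without a filter the metallothionein median, then over 4 genes, was 0.52, the SLC30 median 0.12 and the 16q median -0.25. With 5 FPKM or more, 798 genes were higher, and the metallothionein median, over MT2A and MT1X, was 1.91. With FPKM rescaled, 2058 genes were higher and the SLC30 median was 0.38. With the 16q median subtracted the metallothionein median, that of MT2A, was 1.2. With only the most abundant transcript per gene the SLC39 median turned from below 0 to 0.0041. The low fragment numbers of MT1X in shNT and of MT1F in both libraries limit what depth can show.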
